A study of Mus musculus with 6 samples.

Results

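Spermine-binding proteins and the enzymes and regulators of polyamine metabolism were followed in mouse prostates through 10 named genes: Sbp, Sbpl, Smox, Odc1, Amd1, Srm, Sms, Sat1, Azin1 and Oaz1. A gene was followed where a probe set, other than a control, had it as its only symbol in the platform annotation, and of several such probe sets the brightest by mean intensity, all arrays counted, was kept. By that rule 7 of the 10 were measured, out of 19938 genes in all. Sms and Oaz1 had 2 probe sets each, all shared with another symbol (a pseudogene in the case of Oaz1), and Amd1 had none named for it, so these 3 are not analysed here. The prostates came from 3 mice labelled AR3 transgenic and 3 wild-type littermates, all aged 4 weeks, with 1 array per mouse. AR3 is a splice variant of the androgen receptor that lacks the ligand-binding domain. The sources used here give neither the promoter nor the cells that drive the transgene, nor the strain or the number of founder lines.

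Polyamines are small positively charged molecules that cells make from ornithine: ornithine decarboxylase gives putrescine, and synthases add aminopropyl groups to give spermidine and then spermine. Antizymes hold the pathway in check by binding ornithine decarboxylase, and acetylation and oxidation run the chain backwards. The prostate is known for an unusually high output of spermine into its secretion, and in rodents its secretory cells also release a protein that binds spermine, whose synthesis depends on androgen.

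Among the 7 measured genes, Sbp and Sbpl, which encode the spermine-binding protein and its relative, were lower in AR3 transgenic prostates, at 0.53 and 0.42 times the wild-type mean. Smox, which encodes the oxidase that turns spermine back into spermidine, was higher, at 2.31 times the wild-type mean. The genes of the steps in between, Odc1, Azin1, Srm and Sat1, had log2 changes between −0.11 and 0.15. Past an adjusted p of 0.05 in a limma fit over all probe sets, 2 of the 7 were lower and 1 higher, where 0.456% of all genes were lower, 1.18% higher and 1.64% either (1.47% of probe sets). The genes were chosen by the same values that this comparison uses, the log2 intensities of the 3 transgenic against the 3 wild-type arrays. Their calls and changes are therefore given as a description, and nothing is read from the count.

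Sbp and Sbpl are neighbours on chromosome 17 by RefSeq (GRCm38.p6), Sbp on the plus strand and Sbpl on the minus strand, so that they are transcribed towards each other. As the genes were lower together, the 250 bases before a start site of each are shown, from RefSeq. The RefSeq table lists 3 start sites for Sbp, of which the second is shown, and 1 for Sbpl. Capitals mark a match to any of 4 motifs sought on both strands: the androgen receptor half-site AGAACA, its palindrome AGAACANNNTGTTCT, the Myc site CACGTG and the TATA box TATAAA.
Sbp, second start site, chr17:23941428-23941677, plus strand, GRCm38.p6: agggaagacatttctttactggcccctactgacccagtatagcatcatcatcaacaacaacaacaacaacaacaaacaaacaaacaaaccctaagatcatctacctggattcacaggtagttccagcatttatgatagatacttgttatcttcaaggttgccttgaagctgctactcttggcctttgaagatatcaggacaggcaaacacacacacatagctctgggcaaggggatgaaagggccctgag
Sbpl, chr17:23955274-23955523, minus strand, GRCm38.p6: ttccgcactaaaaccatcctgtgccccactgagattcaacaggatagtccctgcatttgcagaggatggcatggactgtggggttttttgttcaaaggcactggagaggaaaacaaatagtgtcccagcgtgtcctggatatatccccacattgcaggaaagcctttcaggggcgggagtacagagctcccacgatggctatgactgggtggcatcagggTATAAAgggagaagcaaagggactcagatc
The Sbpl window holds 1 TATAAA, beginning 30 bases before the start, a motif present in 12.4% of 32851 RefSeq windows of this length. The windows of the first and second Sbp start sites hold none of the 4 motifs. That of the third holds 1 half-site, on the opposite strand and beginning 64 bases before the start, where 16.1% of all windows hold one. CACGTG is in 6.02% of windows and in neither gene's. The palindrome, which contains the half-site, is in 3 of the 32851 windows and in neither gene's. A match is a description of the letters and says nothing about binding.

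All values below are the authors' deposited intensities on a linear scale, and changes are transgenic minus wild-type on the scale log2(intensity + 16). A level is compared only between arrays for 1 gene, since probe sets differ in brightness. Whole prostates were used, so fewer cells of a type and less RNA per cell cannot be told apart.

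Sbp, the androgen-dependent spermine-binding protein of the rodent prostate, read 4138, 4229.9 and 3952 in AR3 transgenic replicates 1, 2 and 3, against 7097, 7746 and 8414 in wild-type replicates 1, 2 and 3. The genotypes did not overlap, and the transgenic arrays lay closer together than the wild-type arrays. The means were 4107 ± 142 in transgenic and 7752 ± 658 in wild-type prostates (SD, n = 3 each). The log2 change was −0.91 ± 0.09 (SE), with a 95% interval from −1.11 to −0.71, and among all genes Sbp had rank 38 by size of fall.

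Sbpl, annotated by its likeness to Sbp, read 1498, 1526 and 1294 in the AR3 transgenic arrays, against 2937, 3493 and 3733 in the wild-type arrays. Here too every transgenic array lay below every wild-type array. The means were 1439 ± 126 in transgenic and 3388 ± 408 in wild-type prostates (SD, n = 3 each). The log2 change was −1.22 ± 0.11 (SE), with a 95% interval from −1.49 to −0.96, and Sbpl had rank 19 by size of fall. The intervals of Sbp and Sbpl overlap, and the difference between their changes was not tested. Within each genotype both genes were lowest on the same array, transgenic replicate 3 and wild-type replicate 1, and highest on the same array, transgenic replicate 2 and wild-type replicate 3. Any signal that the related genes share through like probes was not separated.

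**Figure D1:**
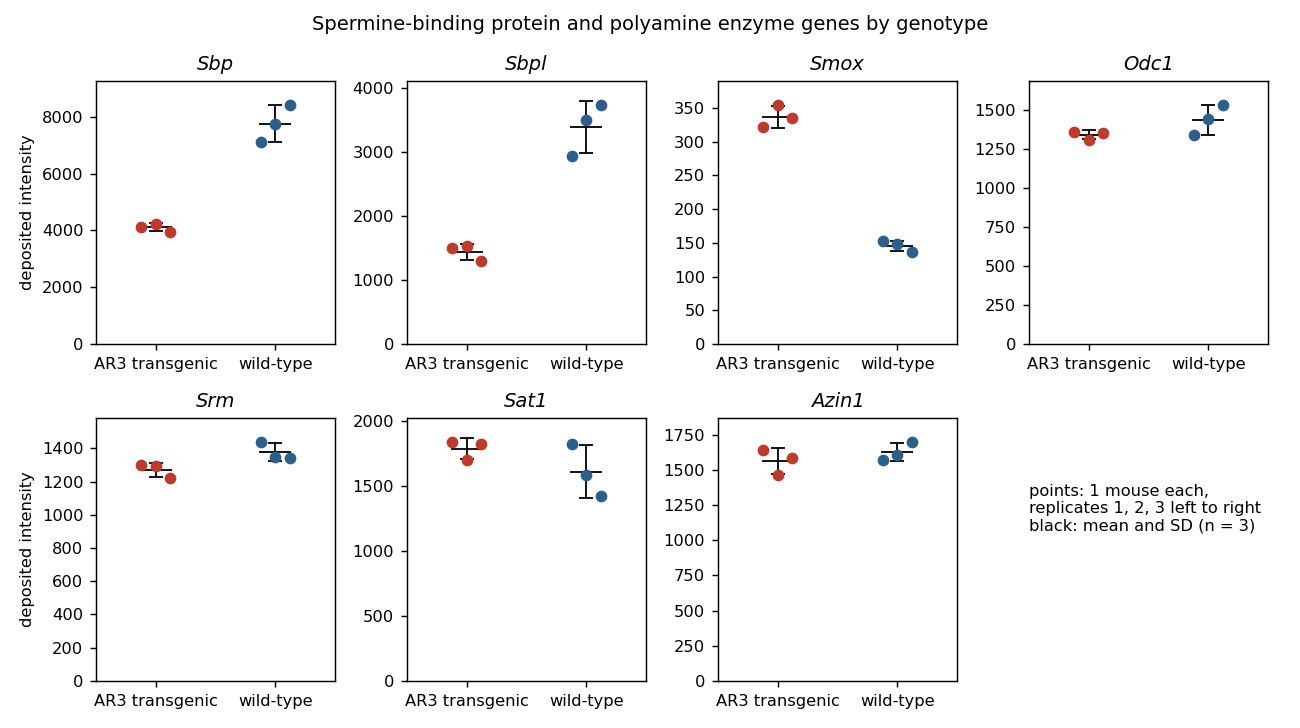
Deposited intensity of each of the 7 measured genes on every array, AR3 transgenic left and wild-type right, with the mean and SD (n = 3) in black and axes from 0. The genotypes lie apart for Sbp and Sbpl (transgenic lower) and for Smox (transgenic higher), lie close together without overlap for Srm, and overlap for Odc1, Sat1 and Azin1.

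The arrays on which Sbp and Sbpl were lowest within their genotype were those with the most signal from the seminal vesicle, a gland attached beside the prostate. The median intensity of the arrays also had the same order within each genotype as Sbp and Sbpl. It was 106.4, 106.8 and 105.0 in AR3 transgenic replicates 1, 2 and 3, and 94.5, 103.8 and 110.8 in wild-type replicates 1, 2 and 3. The part of either in the shared order was not tested. Summed over 5 seminal vesicle markers (Svs2, Svs4, Svs5, Svs6 and Pate4), the intensity was 2475, 1343 and 8729 in AR3 transgenic replicates 1, 2 and 3. In wild-type replicates 1, 2 and 3 it was 4393, 161 and 175. Pate4 made up most of the sum on transgenic replicate 2, reading 1203 there. Svs2, Svs4 and Svs5 read 24.6, 60.3 and 15.5 on that array, against 20.4, 50.1 and 12.9 on wild-type replicate 2. Pate4 alone of the markers did not overlap between genotypes (log2 change 3.88). Svs6 went the other way from the sum, lowest within its genotype on transgenic replicate 3 (26.1) and wild-type replicate 1 (40.4). The ranges of the genotypes overlap, and 0 of the 5 passed the threshold in limma (1 at an unadjusted p under 0.05). Without wild-type replicate 1 and transgenic replicate 3, a setting added after the values were seen, the log2 changes were −0.95 for Sbp, −1.25 for Sbpl and 1.16 for Smox. The marker sums of the arrays left then lay apart between genotypes (2475 and 1343 in transgenic, 161 and 175 in wild-type prostates). On transgenic replicate 2 this rested on Pate4. The setting thus leaves a difference in the marker sum between genotypes. The part of the seminal vesicle signal in the result was not tested. The relation between the marker sum and Sbp over the arrays was not tested either.

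**Figure D2:**
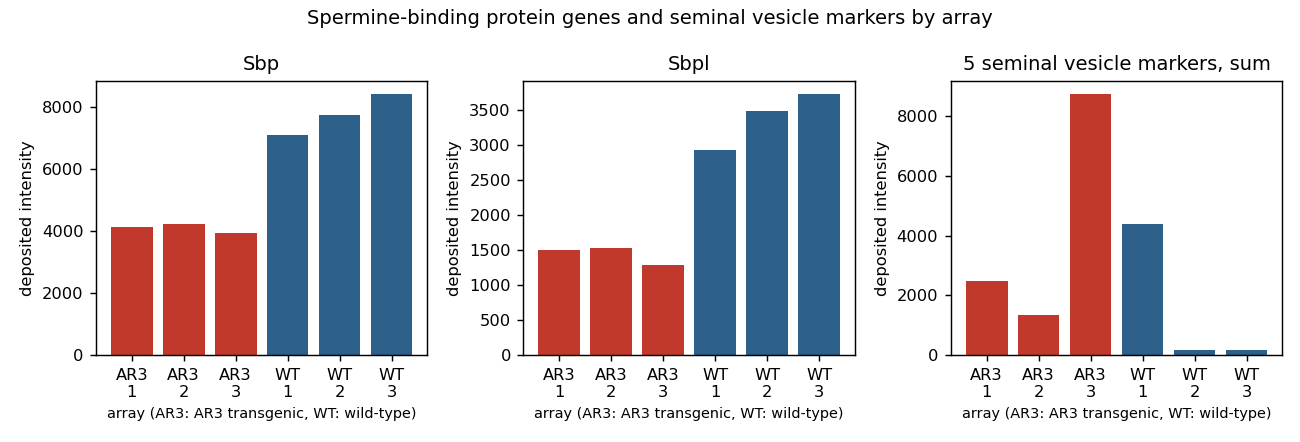
Deposited intensity by array of Sbp, of Sbpl and of 5 seminal vesicle markers summed, AR3 transgenic arrays left of wild-type arrays, bars from 0. Sbp and Sbpl separate the genotypes, while the marker sum is high on transgenic replicate 3 (8729) and wild-type replicate 1 (4393) and low on wild-type replicates 2 and 3.

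Markers of other cell types were read beside these results, and their part in them was not tested. The summed luminal markers (Krt8, Krt18, Epcam, Cd24a and Hoxb13, 5 of 6 measured), which define the secretory epithelium, ran from 16145 to 16955 in transgenic and from 15539 to 16559 in wild-type prostates. Each of the 5 read at least 1386 on every array, so the epithelial markers of the labelled tissue are present. In limma 0 of the 5 passed the threshold (1 at an unadjusted p under 0.05). Single luminal markers differed in direction. Epcam lay above in transgenic prostates (log2 change 0.19) and Hoxb13 below (−0.11), both without overlap, while Krt8, Krt18 and Cd24a overlapped. The basal, smooth muscle, fibroblast and skeletal muscle sums also overlapped between genotypes, with 0 called of 3, 4, 4 and 4 markers in limma, and 0, 0, 3 and 1 at an unadjusted p under 0.05. All 4 fibroblast markers had positive changes, with a median of 0.51, and their mean log2 level was 0.48 higher in transgenic prostates, against 0.44 for the myeloid and 0.42 for the endothelial markers. The myeloid sum (4 markers, 1 called higher, Ctss) ran from 539 to 609 in transgenic and from 310.0 to 460.4 in wild-type prostates. The endothelial sum (3 markers, 1 called higher, Cdh5) ran from 438 to 502 in transgenic and from 286 to 393 in wild-type prostates. Both sums lay higher in transgenic prostates without overlap. Of the single markers of these 2 sums only Ctss and Cdh5 did so, while Cd68, Adgre1, Csf1r, Pecam1 and Kdr overlapped between genotypes. Of all genes, 19.1% did not overlap in either direction. No marker listed was at 0.

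Smox, the spermine oxidase, which releases hydrogen peroxide as it acts, read 322, 354 and 334 in AR3 transgenic replicates 1, 2 and 3, against 152, 148 and 137 in wild-type replicates 1, 2 and 3. All transgenic arrays lay above all wild-type arrays with a wide gap. The means were 337 ± 16.2 in transgenic and 146 ± 7.72 in wild-type prostates (SD, n = 3 each), and the log2 change was 1.12 ± 0.08 (SE), with a 95% interval from 0.94 to 1.31. Smox had rank 89 by size of rise among all genes. Olfactory receptor genes, expressed mainly in the nose, served as a scale of background: the 95th percentile of their 1035 probe sets lay between 66.9 and 91.9 on the 6 arrays, below every Smox value.

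Odc1, which encodes ornithine decarboxylase, the enzyme of the first and rate-limiting step, read 1361, 1311 and 1353 in transgenic against 1342, 1439 and 1532 in wild-type prostates. The genotypes overlapped, since wild-type replicate 1 lay among the transgenic arrays. The log2 change was −0.10 ± 0.08 (SE), with a 95% interval from −0.28 to 0.09. A dimmer probe set of Odc1, left out by the rule, gave 0.01 ± 0.08 (SE), with an interval from −0.18 to 0.20.

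Azin1 encodes the antizyme inhibitor, a catalytically inactive relative of ornithine decarboxylase that frees the enzyme by binding antizyme. Its intensity was 1643, 1463 and 1589 in transgenic against 1574, 1605 and 1702 in wild-type prostates. The genotypes overlapped, with a log2 change of −0.06 ± 0.08 (SE) and an interval from −0.24 to 0.13.

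Srm, the spermidine synthase, read 1301, 1291 and 1224 in transgenic against 1440.5, 1347 and 1342 in wild-type prostates. Its genotypes did not overlap, transgenic below, as for 8.61% of all genes, but the gap was small. The log2 change was −0.11 ± 0.07 (SE), with an interval from −0.28 to 0.06.

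Sat1 encodes the acetyltransferase that marks spermidine and spermine for export or for oxidation back down the chain. Its intensity was 1842, 1698 and 1825 in transgenic against 1828, 1585 and 1423 in wild-type prostates. The wild-type arrays were spread over a wider range than the transgenic arrays, and the genotypes overlapped. The log2 change was 0.15 ± 0.10 (SE), with an interval from −0.09 to 0.40. For Odc1, Azin1, Srm and Sat1 the intervals bound the change and do not show that expression was equal.

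The rest of the polyamine pathway was read from lists by role, of which 39 of 47 genes were measured. By limma 0 of the 39 passed the adjusted threshold, where 1.64% of all genes did, and 3 had an unadjusted p under 0.05, where 12.2% of all genes did. Their median log2 change was 0.01, as for all genes (0.01), and the genotypes did not overlap for 8 of the 39, against 19.1% of all genes. Log2 changes ran from −0.28 to 0.51.

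**Figure D3:**
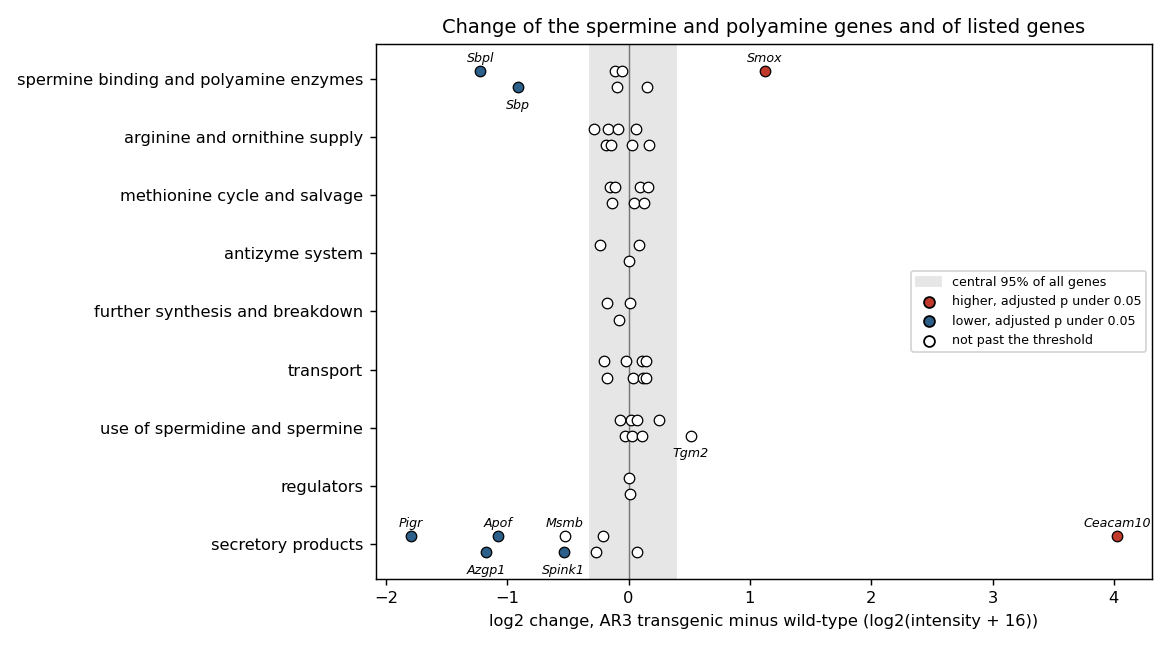
Log2 change, AR3 transgenic minus wild-type, of the 7 measured genes and of the listed genes by role, 1 point per gene, with the central 95% of all genes (−0.32 to 0.39) in grey. Sbp, Sbpl and Smox lie outside the grey band, the other pathway genes lie within it except Tgm2 (0.51, not past the threshold), and secretory products lie mostly below 0.

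Of 8 measured genes that supply arginine and ornithine, 3 had positive and 5 negative changes, with a median of −0.12. Arg1, the arginase that makes ornithine from arginine, read 93.5, 83.1 and 97.8 in transgenic against 106, 109 and 129.6 in wild-type prostates, a log2 change of −0.28 ± 0.10 (SE; limma, adjusted p 0.30). The argininosuccinate lyase Asl had a change of −0.19 ± 0.08 (adjusted p 0.42). Oat, the ornithine aminotransferase, lay the other way, at 2403, 2378 and 2465 in transgenic against 2118, 2121 and 2190.4 in wild-type prostates, a log2 change of 0.17 ± 0.07 (limma, adjusted p 0.38). The genotypes did not overlap for 5 of the 8, against 19.1% of all genes, and none of them passed the threshold. Transgenic values lay below wild-type values in Arg1, Asl, Arg2 (−0.14) and Aldh18a1 (−0.17), an enzyme of ornithine synthesis, and above them in Oat.

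Of 7 genes of the methionine cycle and the salvage of methylthioadenosine, the by-product of the synthases, none had genotypes that did not overlap. The smallest p-values were those of Enoph1 (−0.15), Adi1 (−0.13) and Apip (0.16), all enzymes of the salvage route, with adjusted p from 0.62 to 0.66 in limma. Among 3 further genes of the antizyme system, the antizymes Oaz2 and Oaz3 had log2 changes of 0.00 and −0.23, and Azin2, a second antizyme inhibitor, of 0.08. The changes of Oaz2 and Azin2 took the other sign under some settings given in the closing section. The acetyltransferase relatives Sat2 and Satl1 had changes of −0.08 and −0.18, and the diamine oxidase gene Aoc1 of 0.01, also with a sign that depended on the setting. The values of Oaz3, Satl1 and Aoc1 lay below the background scale.

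Among 8 transport genes, Slc18b1, a vesicular polyamine transporter, read 269.7, 269.8 and 267.7 in transgenic against 279, 319 and 325.0 in wild-type prostates, a log2 change of −0.18 ± 0.08 (limma, adjusted p 0.44). Slc12a8 had a change of −0.20 and Slc3a2, the heavy chain of several amino acid transporters, of 0.14. The lysosomal polyamine exporter Atp13a2 and its relatives Atp13a3 and Atp13a4 had changes between −0.02 and 0.11. Atp13a4, which had the change of 0.11, read from 41.9 to 61.6, below the background scale on all arrays.

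Spermidine is used to make hypusine, a modified amino acid of the translation factor Eif5a, and transglutaminases can join polyamines to proteins. Of 8 genes of these uses, Tgm2, the tissue transglutaminase, read 685, 922 and 858 in transgenic against 587, 657 and 471 in wild-type prostates. The genotypes did not overlap, but the spread within each was wide, and the log2 change of 0.51 ± 0.15 (SE) had an adjusted p of 0.22 in limma. Dhps, which begins hypusine synthesis, had a change of 0.25 (adjusted p 0.46), and Tgm3 of 0.11. Tgm4, the prostate transglutaminase, lay at 0.07 ± 0.07 (SE). Myc, whose protein drives Odc1 transcription, read 785, 773 and 711 in transgenic against 789, 720.2 and 739 in wild-type prostates, a log2 change of 0.01, and Mycn had a change of 0.01; both changed sign under some settings.

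Sbp and Sbpl were set against 9 other genes listed as secretory products of the prostate, whose response to androgen was not tested. Of these, 4 were lower, 1 was higher and 4 did not pass the threshold, with a median log2 change of −0.52. Of all genes, 0.456% were lower and 1.18% higher. The 9 were listed with earlier results of these data known, so their count is a description. Pigr, the transporter of mucosal immunoglobulin, read 476, 495 and 521 in transgenic against 1540.3, 1864 and 1906 in wild-type prostates, so that it fell by 1.79 on the log2 scale. Azgp1, a secreted zinc-binding glycoprotein, fell by 1.17, the lipoprotein gene Apof by 1.08 and the protease inhibitor gene Spink1 by 0.53. Ceacam10 rose, reading 889.9, 949 and 959 in transgenic against 48.0, 39.1 and 39.8 in wild-type prostates. Its wild-type values lay below the background scale, so the log2 change (4.03, and from 3.23 to 4.44 over the alternatives) has no fixed size. Msmb (−0.52), Defb50 (−0.27) and Pbsn (−0.21), all secretory products, had transgenic values below every wild-type value without passing the threshold. Transgenic values lay below every wild-type value for 8.61% of all genes. Tgm4, as above, did not share this direction. The calls on Apof and Spink1 were both lost when transgenic replicate 2, transgenic replicate 3 or wild-type replicate 2 was left out, with 3 of the 9 then called. Their log2 changes in those 3 settings ran from −1.04 to −0.99 for Apof and from −0.54 to −0.52 for Spink1, close to those on all arrays. That of Spink1 was also lost without transgenic replicate 1.

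None of the measured genes beside Sbp and Sbpl passed the threshold. Of 5 measured genes on each side in the RefSeq order, 0 of 10 were called by limma (0 at an unadjusted p under 0.05), with log2 changes from −0.15 to 0.22 and a median of 0.02. Over all genes 1.64% were called and 12.2% had an unadjusted p under 0.05, so nothing is read from the count. On the Sbp side lie Dcpp1, Dcpp2 and Dcpp3, which encode secreted demilune cell and parotid proteins known from salivary glands. Dcpp1 read 263, 117.5 and 205 in transgenic against 164, 211 and 198 in wild-type prostates. The genotypes overlapped widely, with a log2 change of −0.03 ± 0.25 (SE) and an interval from −0.61 to 0.55. Dcpp2, Dcpp3, Prss21 and Prss30 lay below 66.9, the lower end of the background scale, on all arrays. Prss32 on the same side had a change of −0.02. On the Sbpl side, the serine protease genes Prss30, Prss22 and Prss27 had changes of 0.13, −0.13 and 0.10. Kctd5 had −0.15, and Pdpk1, a kinase that activates Akt, 0.05. The 95% intervals of the changes of Sbp and Sbpl overlap those of no neighbour.

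**Figure D4:**
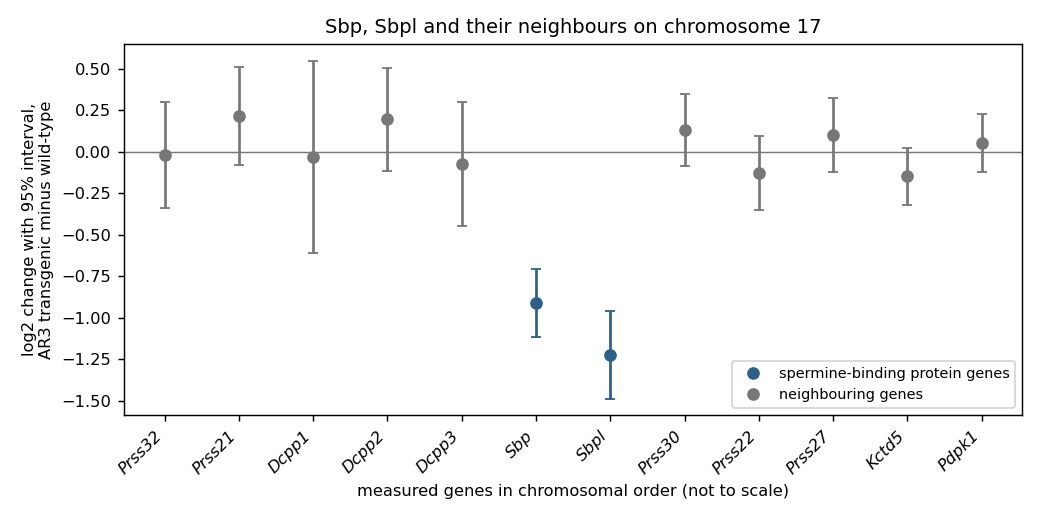
Log2 change with its 95% interval, AR3 transgenic minus wild-type, for Sbp, Sbpl and 5 measured genes on either side, in chromosomal order and not to scale. Sbp (−0.91) and Sbpl (−1.22) lie below 0, while the intervals of all 10 neighbours include 0.

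Genes whose profile over the 6 arrays lay nearest to Sbp or Sbpl were found by the root mean square distance between log2 profiles, each centred on its own mean. This picks genes with a like fall and is a description. Nearest to Sbpl were Cbr2, a carbonyl reductase (distance 0.07), Rnf186, a ubiquitin ligase (0.07), Azgp1 (0.08), the stress-induced gene Nupr1 (0.11) and the actin-bundling gene Pls1 (0.11). Cbr2 read 1384, 1310.3 and 1100.3 in transgenic against 2773, 3335 and 3274 in wild-type prostates, so it also was lowest on transgenic replicate 3 and wild-type replicate 1. Nearest to Sbp were the innate immune receptor gene Naip6 (0.08), the guanylate cyclase gene Gucy2g (0.08), the solute carrier gene Slc10a5 (0.09), the calcium channel gene Trpv5 (0.10) and the Eph receptor gene Ephb6 (0.10). The transgenic means of Naip6, Gucy2g and Trpv5 (29.7, 57.1 and 53.4) lay below the background scale. Naip6 also read only 68.6, 67.7 and 68.9 in wild-type prostates, within the scale, and adding 1 or 64 in place of 16 gave log2 changes of −1.18 and −0.50, so the size of its change depends on that choice. Sbp and Sbpl were 0.17 apart: Sbpl had rank 39 in nearness to Sbp, and Sbp rank 17 in nearness to Sbpl.

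**Figure D5:**
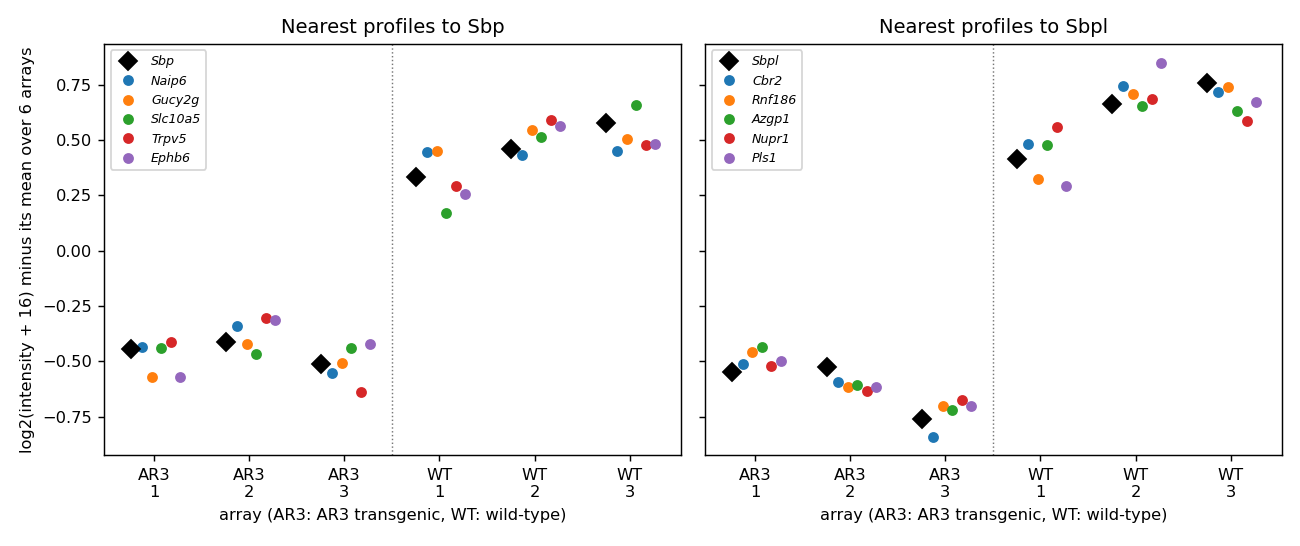
Log2(intensity + 16) minus its mean over the 6 arrays, for Sbp (left panel) and Sbpl (right panel) as black diamonds and the 5 nearest genes of each as coloured points, AR3 transgenic arrays left of wild-type arrays. In the right panel, Sbpl and its nearest genes, Azgp1 among them, are all lowest on transgenic replicate 3.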

How the data were processed

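Total RNA of dissected prostates was labelled with a whole-transcript kit for Affymetrix arrays, per the labels' protocols. The deposited values are probe set intensities, linear judging by their range, and how the authors summarised and normalized them is not given in the sources used here. Of 35512 probe sets, 6568 controls were left out by identifier, from knowledge of the platform, and 28944 were tested. Of these, 21789 had 1 symbol in the platform annotation, 1621 several and 5534 none here, giving 19938 genes.

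Intensities were tested as log2(intensity + 16) in limma 3.58.1 (R 4.3.3), AR3 transgenic minus wild-type without covariates. The p-values are two-sided, and Benjamini-Hochberg adjustment covered the 28944 probe sets, with a threshold of 0.05. The calculation was run on simulated data with independent noise, which leave out differences between arrays and so do not test the fit on these data. The added 16 understates changes of dim genes. Over the arrays the median intensity ran from 94.5 to 110.8; 3 arrays per genotype limit the precision, and no batch is given. The labels name separate mice.

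The measured members and all lists were chosen with earlier results of these data known. Named are all members, up to 3 genes per list with the smallest p and every called gene of a list, 5 neighbours on either side and the 5 nearest profiles, skipping predicted, olfactory and small RNA genes. Other genes given values (Pbsn, Msmb, Defb50, Tgm4, Atp13a2, Atp13a3, Atp13a4, Arg2, Aldh18a1) were singled out after their values were seen. Alternatives were added constants of 1 and 64, median centring or quantile normalization, dropping the 40% of probe sets with the lowest mean, array weights, robust variances with an intensity trend, a block for the mouse number, the mean over a gene's probe sets, and leaving out arrays.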

Additional observations from a re-analysis of the deposited data

How the results depend on the processing

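Sbp, Sbpl and Smox kept their direction and stayed past the threshold in all 16 alternatives. Their log2 changes ran from −0.97 to −0.85, from −1.32 to −1.15 and from 0.93 to 1.20. The adjusted p-values (limma) were at most 0.0201, 0.0164 and 0.0104. These genes were chosen by the same contrast of the same arrays, so this is a description. The alternative without wild-type replicate 1 and transgenic replicate 3 was added after the values were seen. The counts of called pathway genes and called neighbours were 0 in every alternative run. Over all probe sets, 425 were called (305 higher, 120 lower), against 314 higher and 264 lower after median centring. That count was 1202 with array weights, 678 with an intensity trend and robust variances, 250 with a replicate block for the mouse number, 237 without wild-type replicate 1 and transgenic replicate 3, and from 234 to 519 without single arrays. Called secretory products were 5, against 6 with median centring, 6 with an intensity trend and robust variances, 3 with the replicate block, 3 without those 2 arrays and from 3 to 5 without single arrays. Same-numbered mice showed no shared deviation (correlations −0.04, 0.05 and −0.16). With so few mice per genotype, this cannot settle whether mice were paired, by number or by litter. The block changed the calls of Apof and Spink1 among the members and listed genes.

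Signs changed for uncalled genes near 0, the cause of which was not tested. With array weights the log2 changes were −0.11 (Oaz2), −0.081 (Azin2) and −0.075 (Mycn). With median centring they were −0.037 (Oaz2), −0.029 (Aoc1), −0.025 (Myc) and −0.033 (Mycn), and with quantile normalization −0.011 (Oaz2), −0.017 (Myc) and −0.038 (Mycn). Without wild-type replicate 1 and transgenic replicate 3 together they were −0.048 (Oaz2), −0.073 (Aoc1) and −0.12 (Mycn). With arrays left out, singly or this pair, the ranges were −0.080 to 0.096 (Oaz2), −0.017 to 0.20 (Azin2), −0.085 to 0.14 (Aoc1), −0.015 to 0.093 (Myc), −0.15 to 0.11 (Mycn), −0.18 to 0.090 (Prss32), −0.26 to 0.27 (Dcpp1) and −0.29 to 0.070 (Dcpp3). Dcpp2 and other genes below the background scale carry little information at this signal.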
